A study of Mus musculus with 6 samples.

Results

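The small nucleolar RNAs examined here were the 54 genes, of 19938 genes measured in all, whose single gene symbol in the array's platform table starts with Snord, Snora or Scarna. They comprised 31 box C/D genes (Snord), 20 box H/ACA genes (Snora) and 3 genes of small Cajal body RNAs (Scarna). A total of 60 probe sets carried these symbols, and each of the 6 genes with more than 1 was represented by its probe set of highest mean signal. The mouse gene table classes 50 of the 54 as snoRNA, 3 as guide RNA and 1, Snord73b, as snRNA, so the label fits the gene annotation. Expression was measured in whole liver of male C57BL6 mice aged 10 weeks that were fasted for 16 h. Controls received saline and the others the cytokine interleukin-6 (IL-6, 100 ng for each animal), both by intraperitoneal injection, and livers were taken 1 h later. Each group had 3 arrays, and the labels name no genetic change in either. Values are log2 expression values, so a difference of 1 is a doubling.

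Small nucleolar RNAs are short nuclear RNAs that work within protein particles. Box C/D RNAs guide fibrillarin to sites of ribose methylation, mainly in ribosomal RNA, and box H/ACA RNAs guide dyskerin to sites of pseudouridylation. A few members of each class, such as those known as U8, U14 and U17, act in the cleavage of the ribosomal RNA precursor rather than, or as well as, in its modification. Small Cajal body RNAs are related guides that direct the modification of spliceosomal RNAs. In mammals most of these RNAs are cut from introns of longer host transcripts, many of which encode ribosomal proteins or are long noncoding RNAs of the Snhg group. IL-6 acts on hepatocytes through STAT3, and the comparison asks which liver transcripts differ shortly after its injection in fasted animals.

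The arrays had medians between 5.42 and 5.48 over 35556 probe sets. Hepatocyte markers were high, with 9 measured genes at means from 10.7 to 13.4, and 7 neuron markers lay between 4.41 and 5.98. The injected cytokine left its mark in the arrays labelled IL-6, where the STAT3 target Socs3 was higher by 3.15 ± 0.11 on the log2 scale. In limma 84 of 19938 genes passed an adjusted p under 0.05, 77 higher and 7 lower. In whole tissue, fewer cells of a type and less RNA per cell cannot be told apart. Probe sequences were not used here, so a mature small RNA and the host intron that contains it cannot be told apart either.

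One hour after IL-6 the box C/D RNA Snord14e and the box H/ACA RNA Snora31 were called higher in limma. No small nucleolar RNA was called lower. The 2 called members are 3.7% of the 54, beside 0.386% of all genes called higher in limma, and 0.0351% of all genes were called lower. Differences leaned upward in the C/D and H/ACA classes. The counts that follow are over all 54 members, with the 2 called members and the Scarna genes included. Of 54 members 42 had positive differences, which is 77.8% beside 51.1% of all genes. In limma 17 of 54 members were higher at an unadjusted p under 0.05, against 3.78% of all genes, and 0 were lower, against 2.83% of all genes. The IL-6 arrays lay wholly above the saline arrays in 16 of 54 members (29.6%), as they did in 6.15% of all genes, and wholly below in 0, as in 5.48% of all genes. The members share arrays, hosts and in places sequence, so these counts describe the list and were not tested as a set.

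Both main classes showed the pattern. The 31 box C/D genes had a median difference of 0.18 (quartiles 0.004 and 0.32), with 24 positive. The 20 box H/ACA genes had a median of 0.25 (quartiles 0.06 and 0.32), with 17 positive. The median over all genes was 0.003. The 3 Scarna genes had a median of -0.09, with 1 positive. The H/ACA median ranged from 0.18 to 0.32 when each array was left out in turn. The C/D median was 0.31 when the first IL-6 array was left out and 0.076 when the third was, so its size rests on which IL-6 arrays are counted.

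**Figure D1:**
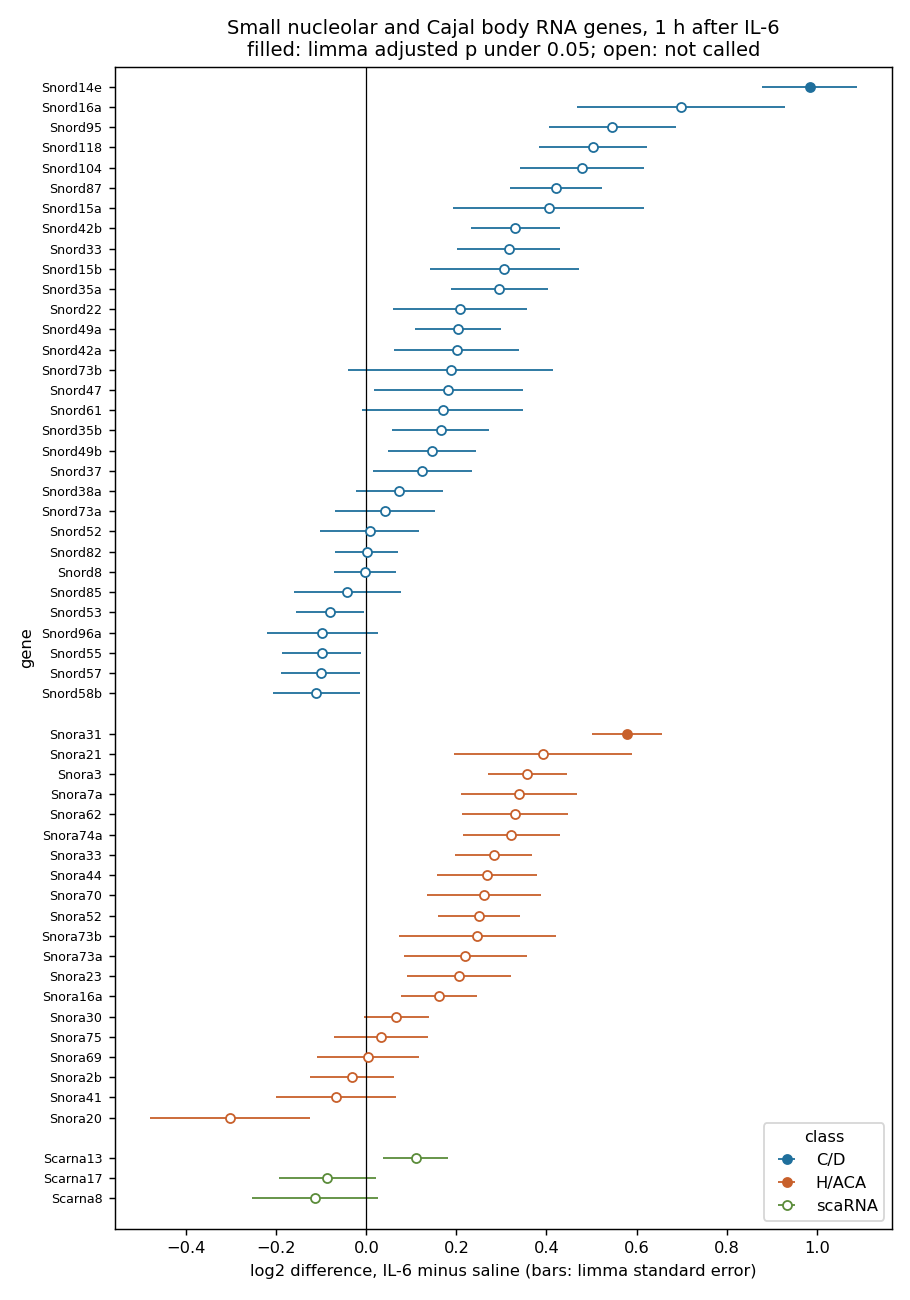
Log2 difference (IL-6 minus saline, horizontal axis) of each of the 54 genes, sorted within class, with limma standard errors as bars and n = 3 arrays per group. Filled points passed a limma adjusted p under 0.05: Snord14e at 0.98 and Snora31 at 0.58, and most open points of both main classes lie to the right of 0.

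Snord14e belongs to the U14 family, box C/D RNAs needed for the processing of the small-subunit ribosomal RNA. Its log2 values were 7.27, 6.95 and 6.95 in saline replicates 1, 2 and 3, and 8.10, 7.91 and 8.10 in IL-6 replicates 1, 2 and 3. All IL-6 arrays lay well above all saline arrays. Saline replicate 1 lay above the other saline arrays, which were level, and without it the difference was 1.09. The mean went from 7.05 ± 0.18 to 8.04 ± 0.11 (SD, n = 3 each), a difference of 0.98 ± 0.11 (standard error) or 1.98-fold (limma adjusted p = 0.00370). The call held on leaving out any single array (limma adjusted p up to 0.0316). It was lost when every probe set was tested (limma adjusted p = 0.0813) and, with 2 arrays per group, on leaving out saline replicate 2 and IL-6 replicate 3 together (0.110), where the difference was still 0.90.

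Other U14 copies lie in introns of the same host gene, Hspa8, and a further one in a ribosomal protein gene. A pair of probe sets annotated jointly to Snord14c, Snord14d and Hspa8 falls outside the rule for members because each carries several symbols. The first of them read 8.19, 8.16 and 7.92 in saline replicates 1 to 3 and 8.70, 8.73 and 8.93 in IL-6 replicates 1 to 3, with no overlap of the groups. Its difference was 0.70 ± 0.11, and that of the second, with nearly the same values, 0.72 ± 0.11. Over all 35556 probe sets neither passed (limma adjusted p = 0.150 and 0.156), where Snord14e itself stood at 0.0813. The probe set annotated to Snord14a and Rps13 had a difference of 0.23 ± 0.12. Copies of U14 are alike in sequence, so signal shared between their probe sets is possible and was not tested.

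Among the other box C/D RNAs, the next largest differences did not pass over all genes. Snord16a, known as U16, read 6.62, 7.37 and 7.42 after saline and 7.50, 7.78 and 8.23 after IL-6, a difference of 0.70 ± 0.23 (limma adjusted p = 0.531). The groups just cleared each other, with saline replicate 1 far below the other saline arrays, and the difference was 0.44 without that array. Snord95 read 5.25, 4.78 and 5.28 after saline and 5.73, 5.47 and 5.76 after IL-6, a difference of 0.55 ± 0.14 (limma adjusted p = 0.313). Snord87 read 5.14, 4.81 and 5.17 after saline and 5.51, 5.43 and 5.43 after IL-6, a difference of 0.42 ± 0.10 (limma adjusted p = 0.277). For both, saline replicate 2 was the lowest array and the groups did not overlap. Without that array the difference was 0.38 for Snord95 and 0.31 for Snord87.

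Snord118, known as U8, is needed for maturation of the large-subunit ribosomal RNAs. It read 3.58, 3.37 and 3.14 after saline and 3.84, 4.01 and 3.75 after IL-6, a difference of 0.50 ± 0.12 (limma adjusted p = 0.241). Its groups were separate, but its mean of 3.62 is a dim signal, as 25% of all genes lie below 4.59. Snord104 gave the highest signal of all members and read 10.56, 10.60 and 10.97 after saline and 10.95, 11.39 and 11.22 after IL-6. Saline replicate 3 and IL-6 replicate 1 were about level there, so the groups overlapped, with a difference of 0.48 ± 0.14 (limma adjusted p = 0.417). The other C/D members whose groups did not overlap were Snord42b (0.33 ± 0.10), Snord33 (0.32 ± 0.11) and Snord35a (0.30 ± 0.11), all 3 hosted by ribosomal protein genes.

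The 7 box C/D RNAs with negative differences had values from -0.11 to -0.003. Snord58b had the lowest value at -0.11 ± 0.10, on a mean signal of 2.93 that was the lowest of all members. Its other probe set had a difference of -0.16. Snord57, hosted by Nop56, had -0.10 ± 0.09, Snord55 -0.10 ± 0.09, Snord96a -0.10 ± 0.12 and Snord53, hosted by Wdr43, -0.08 ± 0.08. In each of the 7 the saline and IL-6 arrays overlapped. Snord57 and Snord55 gave high signals (means 8.47 and 7.91), so the absence of an upward difference was not confined to dim probe sets.

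In the box H/ACA class, Snora31 read 5.51, 5.45 and 5.55 in saline replicates 1, 2 and 3 and 6.18, 6.04 and 6.02 in IL-6 replicates 1, 2 and 3. The groups were far apart relative to the spread within each. The mean went from 5.51 ± 0.05 to 6.08 ± 0.09 (SD, n = 3 each), a difference of 0.58 ± 0.08 or 1.49-fold (limma adjusted p = 0.0131). The difference stayed between 0.53 and 0.61 on leaving out any array. Its call was lost without saline replicate 2 (limma adjusted p = 0.0703), saline replicate 3 (0.0529) or IL-6 replicate 1 (0.0720), and when every probe set was tested (0.111). It was also lost with the replicate number as a block (limma adjusted p = 0.0501) and without saline replicate 2 and IL-6 replicate 3 together (0.151), so it held in 12 of 18 alternatives.

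The remaining H/ACA differences did not pass over all genes. Snora3, hosted by Rpl27a, read 6.66, 6.86 and 6.80 after saline and 7.0, 7.21 and 7.18 after IL-6, a difference of 0.36 ± 0.09 (limma adjusted p = 0.281). Its other probe set had a difference of 0.36 as well. Snora62, known as E2, had a difference of 0.33 ± 0.12, Snora74a, known as U19, 0.32 ± 0.11, and Snora33 0.28 ± 0.09. In these 4 and in Snora70 (0.26 ± 0.13) and Snora52 (0.25 ± 0.09) the groups did not overlap. Snora7a had 0.34 ± 0.13 with overlapping groups. Snora21 had the second largest H/ACA value at 0.39 ± 0.20, but its saline arrays spread from 4.10 to 4.98 and its IL-6 arrays from 4.73 to 5.15.

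The 5 H/ACA RNAs with the highest signals all had positive differences. They were Snora44 (0.27 ± 0.11), Snora73a and Snora73b (0.22 ± 0.14 and 0.25 ± 0.17), which are the U17 RNAs that act in small-subunit processing, Snora52 and Snora23 (0.21 ± 0.12). For Snora73a and Snora73b saline replicate 3 (9.01 and 8.97) lay above IL-6 replicates 1 and 3, so the groups overlapped. At the other end, Snora20 had the lowest value of any member at -0.30 ± 0.18, reading 5.56, 4.93 and 5.06 after saline and 4.95, 4.58 and 5.12 after IL-6. That rank rests on saline replicate 1, without which Snora20 had -0.11 and Snord55 (-0.17), Snord57 (-0.15) and Snora41 (-0.13) were lower. Snora41 had -0.07 ± 0.13 and Snora2b -0.03 ± 0.09, both near the 25th percentile of signal.

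None of the 3 small Cajal body RNAs passed in limma, and 0 of them had an unadjusted p under 0.05. Scarna13 read 7.15, 7.07 and 7.10 after saline and 7.25, 7.24 and 7.17 after IL-6. The groups did not overlap, yet the difference was only 0.11 ± 0.07. Scarna17 had -0.09 ± 0.11 and Scarna8 -0.11 ± 0.14, both with overlapping groups.

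Signal strength went with the size of the differences. Among the 28 members at or above the median signal of all genes 24 differences were positive, with a median of 0.25. Of all genes at that signal 53.1% were positive, with a median of 0.007. Of all genes below the 25th percentile 48.7% were positive, with a median of -0.004. Among the 18 between the 25th percentile and the median 13 were positive, with a median of 0.14, and among the 8 below the 25th percentile 5 were positive, with a median of 0.004. Across the 54 members the correlation of difference with mean signal was 0.28 (Pearson) and 0.32 (Spearman), a description across genes that share the same 6 arrays. Signals of different probe sets depend on their probes and are not amounts of RNA.

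The arrays did not contribute equally. Relative to each gene's saline mean, the median C/D gene stood at -0.02, 0.009 and 0.02 in saline replicates 1, 2 and 3, and at -0.007, 0.18 and 0.39 in IL-6 replicates 1, 2 and 3. For C/D RNAs IL-6 replicate 1 was therefore within the saline range, and the upward median came from the other 2 IL-6 arrays. The median H/ACA gene stood at -0.06, -0.04 and 0.05 in the saline arrays and at 0.12, 0.24 and 0.36 in the IL-6 arrays, without overlap. IL-6 replicate 3 gave the highest value in 25 of 54 members (46.3%, beside 17.9% of all genes), and saline replicate 1 the lowest in 18 (33.3%, beside 17.2% of all genes). IL-6 replicate 3 also stood apart over all genes by signal level. It was the lowest array in 21.2% of all genes, the most of any array, and its median was -0.044 over genes below the 25th percentile of signal and 0.028 over genes at or above the median. The 7 neuron markers, all dim to moderate in signal, had a median of -0.20 there. The part of this array's pattern in the members' differences was not tested beyond leaving the array out. Snord14e and Snora31 differed from this pattern, since IL-6 replicate 1 was about level with IL-6 replicate 3 in Snord14e (8.10 in each) and above it in Snora31.

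Other small noncoding RNAs showed part of the same array pattern. A group of 12 genes for spliceosomal, Y, vault, telomerase, RNase and related RNAs had medians of -0.12, 0.02 and 0.10 in the saline arrays and 0.11, 0.11 and 0.29 in the IL-6 arrays. All 12 differences were positive, against 51.1% of all genes, with a median of 0.11. In limma 0 passed over all genes, while 4 were higher at an unadjusted p under 0.05, against 3.78% of all genes. Rnu3a, among these 4, is the box C/D RNA known as U3, whose symbol falls outside the rule. The group is thus not wholly separate from the C/D class. Rnu3a read 5.51, 5.85 and 6.05 after saline and 5.97, 6.16 and 6.28 after IL-6 (0.33 ± 0.14). Rnu5g, a U5 spliceosomal RNA, had 0.41 ± 0.11 on a dim signal, Rny3, a Y RNA, 0.31 ± 0.10, and Vaultrc5, a vault RNA, 0.40 ± 0.18. The abundant Rn7sk and Rpph1 had 0.06 ± 0.07 and 0.07 ± 0.08. Probe sets of 296 microRNA genes had a median difference of -0.006. Of these genes 171 lay below the 25th percentile of signal and 62 at or above the median. Their differences were not computed by signal level, so they were not compared with members of like signal. Whether recovery of short RNAs differed between the arrays was not tested.

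**Figure D2:**
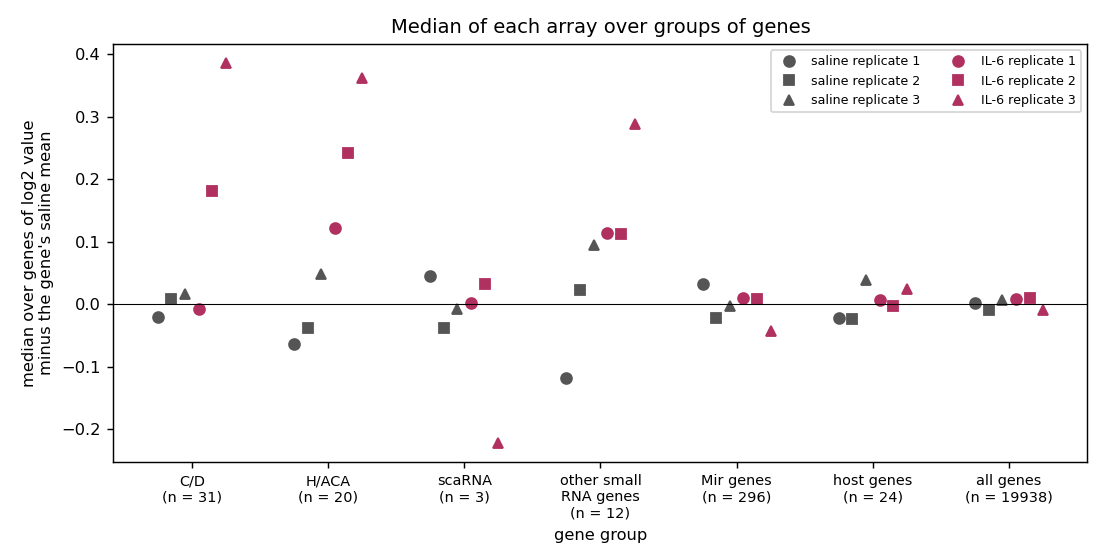
Median over the genes of each group (horizontal axis, with the number of genes) of the log2 value minus the gene's saline mean (vertical axis), 1 point per array. IL-6 replicate 3 stood at 0.39 for C/D, 0.36 for H/ACA and 0.29 for the other small RNA genes, while Mir genes, host genes and all genes stayed near 0 in every array.

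A spanning gene was found for 53 of the 54 members, all but Snord118, in 43 different hosts, of which 24 were measured by probe sets of their own. None of the 24 passed in limma at the adjusted threshold. Also 0 had an unadjusted p under 0.05, against 3.78% of all genes higher and 2.83% lower. The differences of the measured hosts ran from -0.12 to 0.10, with a median of 0.01. Of these 24 hosts 22 lay at or above the 75th percentile of signal of all genes, as did 16 of the 54 members. Hosts and members were thus not compared at like signal. For the 28 members with a measured host, 23 had a larger difference than the host. The correlation of member with host differences was 0.28 (Pearson) and 0.39 (Spearman) over these 28 pairs, which share arrays and in 4 cases a host, and 0.39 and 0.48 without Snord14e and Snora31.

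Hspa8, which encodes a constitutive chaperone of the heat shock protein family and hosts Snord14e, read 12.01, 12.27 and 12.03 in saline replicates 1, 2 and 3. It read 12.10, 11.99 and 12.28 in IL-6 replicates 1, 2 and 3, a difference of 0.02 ± 0.10 (limma adjusted p = 0.987). Snord14e minus Hspa8 was higher by 0.97 after IL-6, given as a description because Snord14e was picked by its call on the same values. Tpt1, the host of Snora31, encodes the translationally controlled tumour protein and had 11.46, 11.41 and 11.51 after saline and 11.41, 11.42 and 11.50 after IL-6. Its difference was -0.02 ± 0.07, and Snora31 minus Tpt1 was higher by 0.60 after IL-6, likewise a description.

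**Figure D3:**
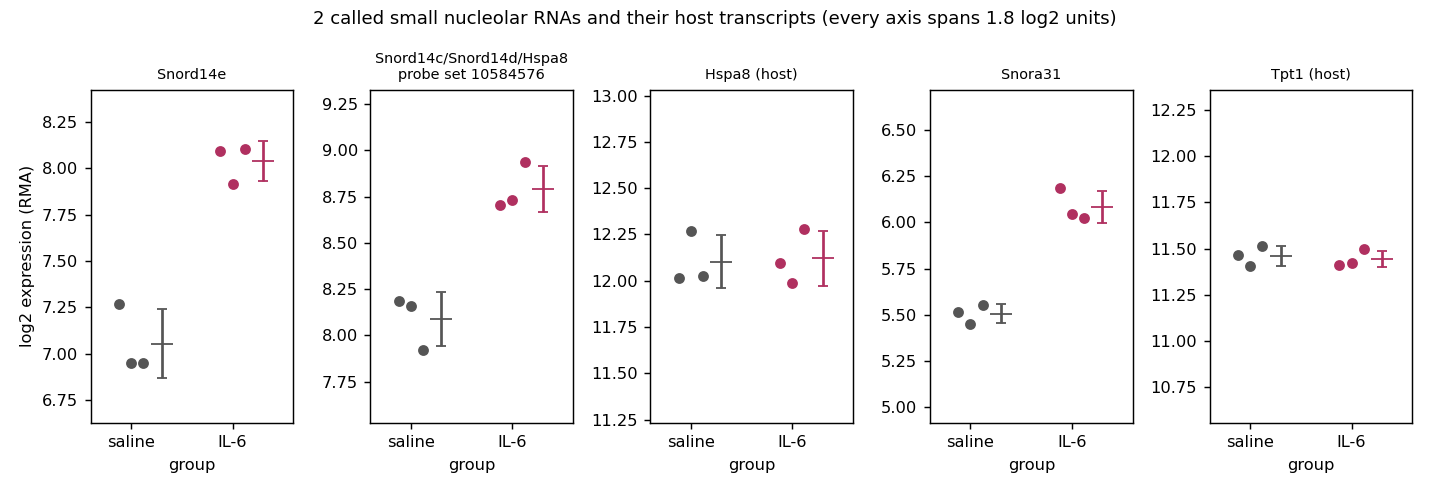
Log2 values of each array (points) with the mean and SD of each group (n = 3), for Snord14e, the joint Snord14c, Snord14d and Hspa8 probe set, Hspa8, Snora31 and Tpt1, on vertical axes of equal span. The small RNAs separate by group (Snord14e by 0.98, Snora31 by 0.58), and the host transcripts overlap (0.02 and -0.02).

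Members split by the kind of host, a grouping made with their values known. The 21 members hosted by ribosomal protein genes had a median difference of 0.28, with 19 positive. The 15 hosted by long noncoding RNAs had a median of 0.20, with 13 positive. The 17 hosted by other protein-coding genes had a median of 0.0007, with 9 positive, although both called members belong to them. The 3 groups also differed in signal. At or above the median signal of all genes were 11 of the 21, 12 of the 15 and 5 of the 17. Host kind and signal were not separated. The measured ribosomal protein hosts themselves, 10 genes, had a median of 0.04, and all 61 measured ribosomal protein genes 0.05.

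Many hosts of small nucleolar RNAs carry a run of pyrimidines at the start of transcription, the sequence by which translation of ribosomal protein mRNAs is controlled. Windows around annotated start sites were taken from RefSeq on build GRCm38.p6 and were given for 32 of the 43 hosts, in 34 windows. An unbroken run of at least 8 C or T within 30 bases on either side of the start, on the strand of the gene, was present in 13 of 34 host windows (38.2%), beside 22.9% of all 32851 windows. In the ribosomal protein hosts it was present in 6 of 11. The motif TTCNNNGAA, bound by STAT factors and the same on both strands, was searched in the whole windows of 250 bases before to 50 after the start. It was found in 1 of 34 host windows (2.94%), that of Rpl4, beside 8.3% of all windows, and not in that of Tpt1. Hspa8, the host of Snord14e, was not searched. These letters describe the windows only.
The starts of 7 hosts are shown, those with a window among the hosts of members whose differences were at least as large as that of Snora3. They are Tpt1 of the called Snora31, Rpl4 of Snord16a, Rack1 of Snord95, Gm36220 of Snord104, Rps3 of Snord15a, Rpl23 of Snora21 and Rpl27a of Snora3. Each runs 5′ to 3′ over 60 bases with the start in the middle, and capitals mark its longest pyrimidine run.
Tpt1, chr14:75845226-75845285, plus strand: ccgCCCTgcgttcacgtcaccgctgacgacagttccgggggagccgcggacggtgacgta
Rpl4, chr9:64173357-64173416, plus strand: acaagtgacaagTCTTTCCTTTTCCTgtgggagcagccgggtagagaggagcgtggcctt
Rack1, chr11:48800330-48800389, plus strand: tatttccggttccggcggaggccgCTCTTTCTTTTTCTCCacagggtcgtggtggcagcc
Gm36220, chr11:106500885-106500944, plus strand: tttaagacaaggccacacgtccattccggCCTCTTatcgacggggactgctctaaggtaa
Rps3, chr7:99483680-99483739, minus strand: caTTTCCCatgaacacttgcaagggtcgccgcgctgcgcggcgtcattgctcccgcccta
Rpl23, chr11:97782410-97782469, minus strand: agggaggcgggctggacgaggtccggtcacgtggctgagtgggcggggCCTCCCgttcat
Rpl27a, chr7:109519165-109519224, plus strand: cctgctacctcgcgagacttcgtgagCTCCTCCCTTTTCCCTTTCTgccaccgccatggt
The longest run was 20 bases in Rpl27a, 16 in Rack1 and 14 in Rpl4, 6 in Gm36220, Rps3 and Rpl23, and 4 in Tpt1, so long and short runs both occurred among these hosts. Counted from the annotated start, these runs began at -4 in Rpl27a, -6 in Rack1, -18 in Rpl4 and -1 in Gm36220. They began at -28 in Rps3, 19 in Rpl23 and -27 in Tpt1. The longest run is thus not always at the start, and its length does not show whether a host has such a tract there.

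**Figure D4:**
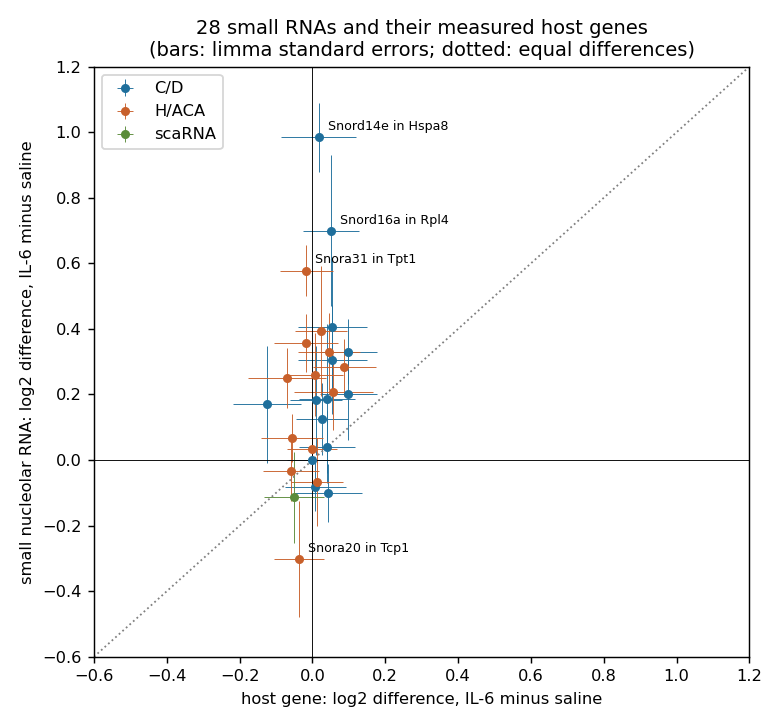
Log2 difference of each of 28 small RNAs (vertical axis) against that of its measured host gene (horizontal axis), IL-6 minus saline, with limma standard errors as bars and a dotted line of equal differences. Host differences stay between -0.12 and 0.10 while those of the small RNAs reach from -0.30 to 0.98.

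Small RNAs of the same host were set side by side. A host with 2 measured members occurred 10 times, and none had 3. The members of a pair differed by a median of 0.10 (0.02 to 0.64), beside a median standard error of 0.11 for 1 member's difference. Pairs from different hosts were not compared, so likeness is not shown to go with a shared host. Snord33 and Snord35a of Rpl13a (0.32 and 0.30), and Snora73a and Snora73b of Snhg3, lay close together. Snord15a and Snord15b of Rps3 had 0.41 ± 0.21 and 0.31 ± 0.17, but Snord15a rests on IL-6 replicate 3 (8.77, against 7.92 and 7.88 in the other IL-6 arrays). Without that array the pair had 0.11 and 0.19, and without IL-6 replicate 2 it had 0.56 and 0.26. The widest pair was in Rack1, which encodes a ribosome-bound scaffold protein, where Snord95 had 0.55 and Snord96a -0.10. Snord96a read 5.91, 5.80 and 5.70 after saline and 5.82, 5.41 and 5.87 after IL-6, so its groups overlapped where those of Snord95 did not. This pair was singled out after its values were seen, and its difference was not tested. In Ncl, which encodes nucleolin, Snora75 and Snord82 had 0.03 ± 0.10 and 0.0007 ± 0.07.

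Of the 4 core box C/D proteins and the 4 core H/ACA proteins none passed in limma at the adjusted threshold, while 2 had an unadjusted p under 0.05. Over all genes 3.78% were higher and 2.83% lower at that unadjusted p in limma. Nop58, a core C/D protein, had 0.30 ± 0.09 (limma adjusted p = 0.486), with the IL-6 arrays above the saline arrays. Fbl, the methyltransferase fibrillarin, had -0.20 ± 0.08 (limma adjusted p = 0.633), with the IL-6 arrays below the saline arrays. Nop56 had 0.04 ± 0.09 and Snu13 0.12 ± 0.07. The H/ACA proteins Dkc1, the pseudouridine synthase dyskerin, Nhp2, Nop10 and Gar1 had differences between 0.02 and 0.04.

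Of 13 assembly and trafficking factors 0 passed in limma at the adjusted threshold. At an unadjusted p under 0.05 in limma 2 were higher, against 3.78% of all genes. Shq1, an assembly chaperone of dyskerin, had 0.34 ± 0.08 (limma adjusted p = 0.259), and Znhit3, a factor in C/D assembly, 0.27 ± 0.08 (limma adjusted p = 0.505). In both the groups did not overlap. The list's median was 0.05, with 11 of 13 positive, against 51.1% of all genes. The 22 genes of processing and decay, such as the exosome and Lsm genes, had a median of 0.03, and the 24 genes of ribosomal RNA transcription and early processing 0.01. In each of these lists 0 genes passed in limma at the adjusted threshold. Also 0 had an unadjusted p under 0.05, against 3.78% of all genes higher and 2.83% lower. Of the Snhg and Gas5 transcripts 6 were measured, with differences between -0.009 and 0.08. Gas5, the host of Snord47, had 0.01 ± 0.07, and Snord47 0.18 ± 0.17.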

How the data were processed

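Total RNA from 6 liver samples was biotin-labelled and hybridised to 1-colour Affymetrix arrays. The deposited log2 values per probe set are RMA output of the authors, as recorded in the submitters' processing notes. For RMA, version, settings and annotation build were not given in the sources used here. Quantile normalization and probe summary can compress changes. The table held 35556 probe sets, of which 21789 had exactly 1 symbol, 1621 several and 12146 were unlisted. The probe set with the highest mean per symbol gave 19938 genes, with no filter on dim genes. IL-6 was compared with saline in limma 3.58.1 (R 4.3.3), two-sided, with Benjamini-Hochberg adjustment over all genes and a threshold of 0.05. The labels do not say in so many words that each array is its own animal, and p-values then reflect only how far these samples spread, which may be technical. The number of arrays limits precision: the median standard error of a member's difference was 0.11. The fit was tested on simulated data.

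Hosts were the shortest other gene spanning a member in the GRCm38.p6 gene table, matched by gene ID for all 54 members. Strand was not in that table and was not used, and 3 members had several spanning genes. Named genes were, by rule, called members, the 5 largest differences in each direction per main class (3 for Scarna), the 5 smallest p, the 5 highest and 3 lowest signals, hosts of these and the core proteins. Others are named after their values were seen, for non-overlap, host pairs or as examples of a list. The members and lists were chosen with earlier results of these data known. Alternatives were other scalings, filters, probe set choices, variance priors, array weights, thresholds, the replicate number as a block and leaving out arrays. Python 3.11.15 and matplotlib 3.10.9 made the figures.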

Additional observations from a re-analysis of the deposited data

How the results depend on the processing

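The 77 higher and 7 lower genes became 16 and 1 when every probe set was tested, and 31 and 2 on leaving out saline replicate 2 and IL-6 replicate 3 together, a choice made after seeing the data. In both settings 0 C/D and 0 H/ACA members were called, and the scaRNA median was 0.095 in the second. An adjusted threshold of 0.1 gave 12 lower genes, and an unadjusted p under 0.05 gave 754 higher and 565 lower genes, 9 C/D and 8 H/ACA members. Leaving out each array gave 45 to 67 higher and 3 to 5 lower genes, 1 called C/D member each time, 0 to 1 called H/ACA members, and medians of 0.076 to 0.31 for C/D, 0.18 to 0.32 for H/ACA and -0.13 to 0.017 for scaRNA. With the replicate number as a block, 0 H/ACA members were called (Snora31 at a limma adjusted p of 0.0501) and 59 genes were higher. Against the main fit, the block lowered the limma adjusted p of some uncalled members (Snord16a to 0.0682, Snord95 to 0.0716). It raised that of others (Snora33 to 0.686). Deviations of same-numbered arrays over all genes correlated at 0.08, -0.12 and -0.09. With 3 arrays per group these values cannot decide whether the numbers pair the samples. Median centring, cyclic loess and repeated quantile normalization kept the sign of all 54 members, with C/D medians of 0.17 to 0.18 and H/ACA medians of 0.22 to 0.25. Array weights gave lower medians, 0.11 for C/D and 0.18 for H/ACA. Of 558 alternatives for 32 named members, 8 lost the call of Snord14e or Snora31, the only members with a call to lose. Snord14e kept it in 16 of 18 and Snora31 in 12 of 18. The other 550 kept direction and side of the threshold or had no call to lose, so that count does not measure stability. The sign changed in some alternatives for the uncalled Scarna8, Scarna17, Snora2b, Snora41, Snord61 and Snord96a. No member of the families at imprinted brain loci was present, so leaving them out changed nothing. The causes of these changes were not tested. Testing all 35556 probe sets both adds tests and refits the variance prior, and these were not separated.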

Other observations

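Probe sets that carry a small nucleolar RNA symbol together with other symbols belong to none of the comparisons above. There were 41, of which 24 were annotated to Snord116, a box C/D family of brain that is expressed from an imprinted locus. The Snord116 probe sets held only 7 distinct sets of values, with means of 2.71 to 2.86, below the 25th percentile of all genes, and differences of 0.13 to 0.22. Of the other 17 probe sets 15 had positive differences, with a median of 0.12. Beside the U14 probe sets, the probe sets of Snord1b and Snord1c had 0.37 ± 0.15, and Snord68 with Rpl13 had 0.24 ± 0.13. Snora43 with the noncoding host Snhg7 had 0.22 ± 0.10, and Snora24 with Snhg8 0.11 ± 0.08. Snord32a and Snord34, annotated jointly with Rpl13a, the host of Snord33 and Snord35a, had 0.10 ± 0.20 and 0.12 ± 0.15. Over all 35556 probe sets none of the 41 passed in limma at the adjusted threshold.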
